A study of Homo sapiens with 6 samples.

Results

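The gene family described here comprises ligands of the epidermal growth factor receptor (EGFR) and ErbB receptors: Areg, Ereg, Epgn, Btc, Hbegf, Tgfa, Egf, Egfr, Erbb2 and Erbb3. Its 10 members, 7 ligands and 3 receptors, were taken by gene ID from the 54532 IDs of the deposited tables, and each was present in all 6 libraries. The ErbB receptor gene Erbb4 is not a member and was not analysed. The family was proposed with earlier results of these data known, and which values chose it is not recorded. It is treated here as selected on the FPKM differences from NC, where Areg was among the IDs with the largest decreases. The members' values against NC are therefore given as a description, with no p-value and with counts of calls from which nothing is read. P-values are given for the difference between sh4 and sh1, on the assumption that this comparison did not choose the family.

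The libraries were RNA-seq of bulk RNA in 3 groups named NC, sh1 and sh4, with 2 libraries each. The labels give A549, a long-established line of human lung adenocarcinoma cells, for every library, and the title names a knockdown of DSTY. The labels do not spell out the group names, so reading sh1 and sh4 as knockdown groups and NC as their control is an assumption, and no vector, hairpin sequence, time or dose is given. Nothing in the labels says that the replicates were separate cultures, so p-values measure the spread between these libraries, which may be technical.

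All 54532 gene IDs carry Ensembl's mouse prefix and 0 the human one, although the labels state human cells. The organism of the RNA is thus unresolved, and the members are called by the mouse names listed with their IDs. None of the 54532 IDs matched the human name tables used here (0 matches), so the labelled cell type could not be checked against markers, and the 12 lists of pathway genes, cell type markers and the knockdown target were not analysed. Whole reads recovered from the tables came to between 14999785 and 18011797 per library. Replicates were further apart than counting noise gives, with a mean chi-square (over IDs with at least 60 reads in the pair) of 5.01 in NC, 2.65 in sh1 and 4.85 in sh4. In bulk RNA, fewer cells expressing a gene and less RNA per cell cannot be told apart.

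EGFR ligands are made as membrane-bound precursors that proteases of the ADAM family cut loose, and the freed ligand binds EGFR on the same or a neighbouring cell. The bound receptor pairs with another EGFR or with a relative and feeds the ERK and PI3K pathways. ERBB2 binds no known ligand and serves as a preferred partner, whereas ERBB3 has a weak kinase and answers to neuregulins. In airway and lung epithelium this family is known for driving growth and repair, and EGFR is a drug target in lung adenocarcinoma.

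Areg and Hbegf were by far the most abundant ligand transcripts in NC, and both were low in every library of sh1 and sh4. Levels are in FPKM (fragments per kilobase of gene, scaled for depth). Genes can be compared with each other only as far as the gene lengths used fit the transcripts present. Ereg, Btc and Tgfa were also lower in both knockdown groups, while Epgn and Egf were barely detected in any library. Of the receptors, Egfr was lower and Erbb2 higher in both groups, and Erbb3 was higher in sh4 alone by its library values. The decrease of Egfr in sh4 was small, and its call depended on the fit. Whether libraries of different groups overlap is described here and below. The share of all tested IDs without overlap was not counted, so nothing is read from it.

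**Figure D1:**
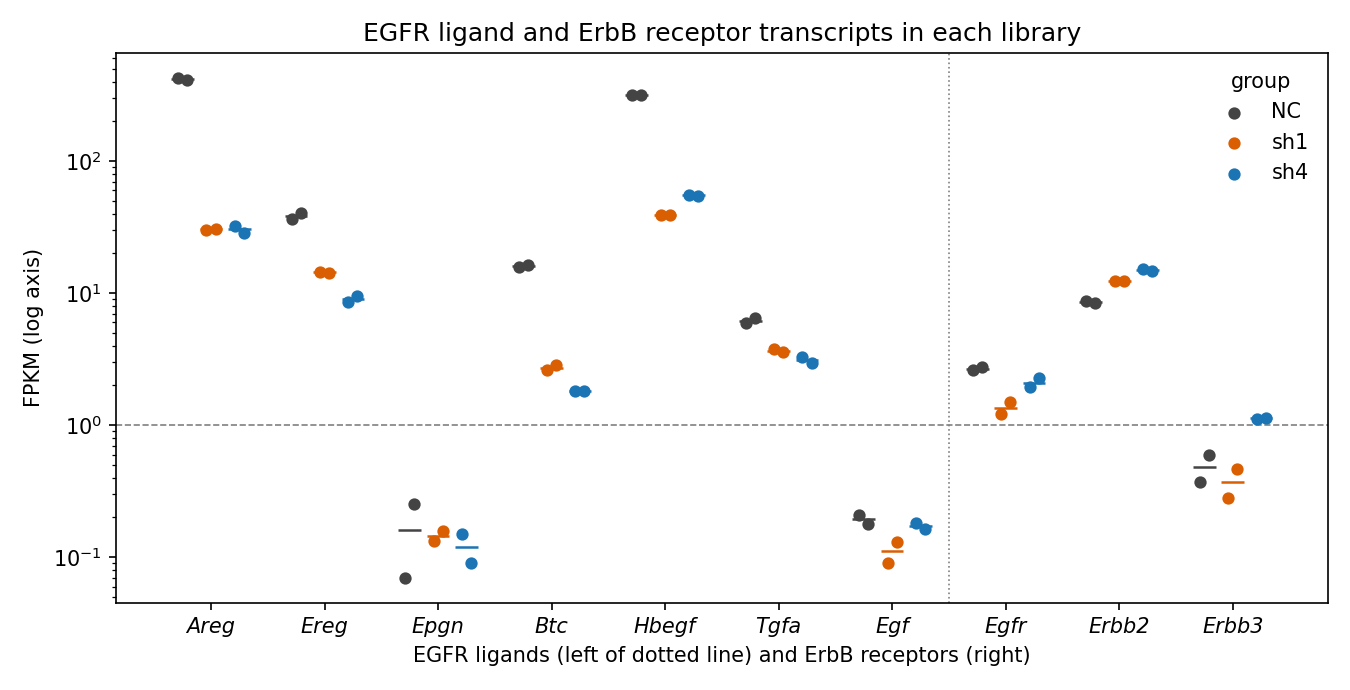
Level of each member in FPKM (log axis) in the 6 libraries, with points for libraries, short lines for group means (n = 2) and a dashed line at 1 FPKM. The NC libraries lie above all sh1 and sh4 libraries for Areg, Ereg, Btc, Hbegf, Tgfa and Egfr, and below them for Erbb2. How many of all tested IDs separate in this way was not counted, and nothing is read from it.

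Areg (ENSMUSG00000029378) encodes amphiregulin, a ligand of EGFR. Its level was 426.9 and 410.3 FPKM in the NC libraries, 30.3 and 30.6 in sh1, and 32.0 and 28.8 in sh4. The NC libraries were far above the others, and those of sh1 and sh4 overlapped. The NC mean was 418.6 ± 11.8 FPKM (SD, n = 2), beside 30.5 ± 0.25 for sh1 and 30.4 ± 2.3 for sh4, so that 7.28% and 7.27% of the NC level was left. The depth behind these values was 8190 and 7645 reads in NC and between 615 and 719 in the other libraries. Areg ranked at places 82 and 90 among all IDs by FPKM in NC and between 1693 and 1841 in sh1 and sh4.

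Hbegf (ENSMUSG00000024486) encodes the heparin-binding EGF-like growth factor, which binds EGFR and also ERBB4. It was at 316.5 and 316.9 FPKM in NC, 39.0 and 38.9 in sh1, and 55.2 and 54.9 in sh4. No library of one group overlapped another group, and sh4 lay between sh1 and NC. On average 12.3% of the NC level was left in sh1 and 17.4% in sh4. The values rest on 11859 and 11533 reads in NC and at least 1547 in each of the others.

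Ereg (ENSMUSG00000029377) encodes epiregulin, and Btc (ENSMUSG00000082361) encodes betacellulin. In mammalian genomes both genes lie in one cluster with Areg and Epgn. Ereg was at 36.4 and 40.3 FPKM in NC, 14.5 and 14.2 in sh1, and 8.56 and 9.50 in sh4. Btc was at 15.7 and 16.4 FPKM in NC, 2.62 and 2.84 in sh1, and 1.81 in both sh4 libraries. Each of these genes was highest in NC and lowest in sh4, with no overlap between groups. Of the NC mean, 37.5% of Ereg was left in sh1 and 23.6% in sh4, and 17.0% and 11.3% of Btc.

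Epgn (ENSMUSG00000035020), the gene for epigen and the last member of that cluster, was not informative at this depth. It had 2 and 7 reads in the NC libraries, 4 and 5 in sh1, and 5 and 3 in sh4, or between 0.0701 and 0.253 FPKM. The exact Poisson intervals (95%) of the NC libraries ran from 0.00849 to 0.253 FPKM and from 0.102 to 0.520 FPKM, and the groups overlapped. These intervals cover counting error only.

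Tgfa (ENSMUSG00000029999) encodes transforming growth factor alpha, an EGFR ligand. It was at 5.94 and 6.45 FPKM in NC, 3.78 and 3.56 in sh1, and 3.27 and 2.97 in sh4. The groups were ordered NC, sh1, sh4 without overlap, and 59.2% and 50.4% of the NC mean was left in sh1 and sh4. Egf (ENSMUSG00000028017), the gene for the founding ligand, had 37 and 31 reads in NC, 17 and 26 in sh1, and 38 and 34 in sh4. Its levels lay between 0.0902 and 0.208 FPKM, with the sh1 libraries below those of the other groups and the sh4 libraries overlapping NC. The exact Poisson interval of sh1 replicate 2 (0.0855 to 0.192 FPKM) overlapped those of both NC libraries, whose lower bounds were 0.146 and 0.122 FPKM. That of sh1 replicate 1 (0.0526 to 0.144 FPKM) overlapped the interval of NC replicate 2 but not that of NC replicate 1.

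The order of the ligands differed between NC and the other groups. In NC it was Areg, Hbegf, Ereg, Btc, Tgfa, Egf and Epgn from highest to lowest mean, and neighbours in this order did not overlap between libraries except Egf and Epgn. In sh1 the order was Hbegf, Areg, Ereg, Tgfa, Btc, Epgn and Egf. In sh4 it was Hbegf, Areg, Ereg, Tgfa, Btc, Egf and Epgn. The neighbours did not overlap in either order, although the last places rest on the few reads given above. Hbegf thus stood above Areg, and Tgfa above Btc, in all 4 libraries of sh1 and sh4 and in 0 of the 2 NC libraries.

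The 7 ligands added up to 801.7 and 790.8 FPKM in NC, 90.4 in each sh1 library, and 101.2 and 98.3 in sh4. The sum in sh1 was thus 11.4% of that in NC, and in sh4 12.5%. Areg and Hbegf together held 92.7% and 92.0% of the sum in NC, 76.6% and 76.9% in sh1, and 86.2% and 85.2% in sh4. The makeup of what remained differed between the knockdown groups. Ereg held 16.0% and 15.7% of the sum in sh1 but 8.46% and 9.67% in sh4, against 4.54% and 5.09% in NC. The ratio of Areg to Hbegf was 1.35 and 1.29 in NC, 0.776 and 0.788 in sh1, and 0.581 and 0.524 in sh4.

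**Figure D2:**
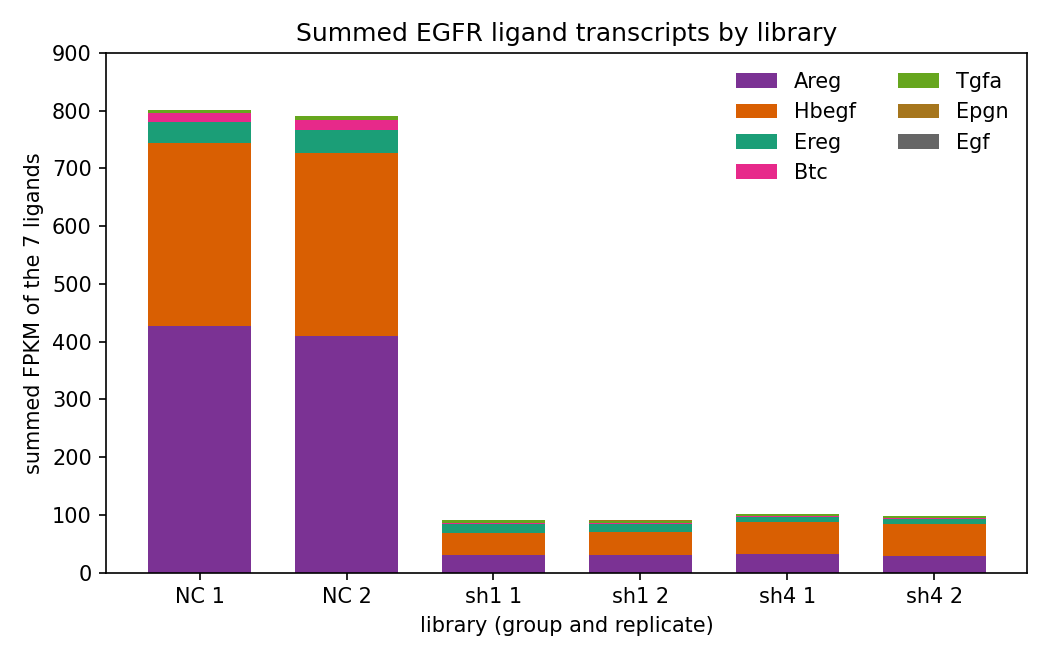
Summed FPKM of the 7 ligands in each library, with the bar split by ligand. The NC bars reach 801.7 and 790.8 FPKM, mostly from Areg and Hbegf, and the sh1 and sh4 bars lie between 90.4 and 101.2 FPKM.

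Egfr (ENSMUSG00000020122) encodes the receptor of all these ligands. It was at 2.61 and 2.75 FPKM in NC, 1.23 and 1.49 in sh1, and 1.93 and 2.27 in sh4. The groups did not overlap, with NC highest and sh1 lowest, and the means of sh1 and sh4 were 50.7% and 78.5% of that of NC. The values rest on between 232 and 477 reads per library.

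Erbb2 (ENSMUSG00000062312), the receptor without a known ligand, went the other way. It was at 8.72 and 8.41 FPKM in NC, 12.4 and 12.3 in sh1, and 15.3 and 14.8 in sh4. Each group lay apart from the others, with means 1.44 and 1.76 times that of NC in sh1 and sh4. The ratio of Erbb2 to Egfr was 3.34 and 3.06 in the NC libraries, 10.1 and 8.25 in sh1, and 7.94 and 6.52 in sh4. Erbb2 was the most abundant of the 3 receptors in each library, followed by Egfr and then Erbb3, and neighbours in this order did not overlap within any group.

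Erbb3 (ENSMUSG00000018166), the neuregulin receptor with the weak kinase, was at 0.368 and 0.596 FPKM in NC, 0.279 and 0.462 in sh1, and 1.12 and 1.14 in sh4. The sh4 libraries were above all others, and those of NC and sh1 overlapped. Reads numbered 35 and 55 in NC, 28 and 49 in sh1, and 124 and 126 in sh4. Erbb3 reached the minimum for testing only through sh4, where it was high, so passing that minimum already depended on a high level there.

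The 3 receptors, without Erbb4, added up to 11.7 and 11.8 FPKM in NC, 13.9 and 14.2 in sh1, and 18.4 and 18.2 in sh4. Set against these sums, the ligands came to 68.6 and 67.3 times the receptors in NC, 6.50 and 6.35 times in sh1, and 5.51 and 5.39 times in sh4. These ratios depend on the gene lengths behind FPKM, recovered as 1215 bases for Areg, 2373 for Hbegf, 5210 for Erbb2 and 11326 for Egfr. Whether the lengths fit the transcripts present was not tested. All of these values are transcript levels, and protein was not measured.

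Differences were fitted across the 12755 IDs that reached 1 FPKM in 2 or more libraries, on the scale of log2(FPKM + 1), which understates changes of low genes. Of the 10 members 8 entered the fit, while Epgn and Egf stayed below the minimum. For sh1 against NC the log2 difference was -3.74 for Areg (SE 0.05), -2.99 for Hbegf (SE 0.04), -2.19 for Btc (SE 0.07), -1.35 for Ereg (SE 0.06) and -0.62 for Tgfa (SE 0.08). For the receptors it was -0.64 for Egfr (SE 0.09), 0.48 for Erbb2 (SE 0.06) and -0.11 for Erbb3 (SE 0.14). By limma with Benjamini-Hochberg adjustment, 7 of the 8 were called, 6 lower and 1 higher, in a comparison that called 65.5% of all tested IDs (33.2% lower and 32.4% higher). Erbb3 was not called. By voom on the recovered reads, which adds no 1 to the values, the difference for Egfr was -0.98. Nothing is read from this count, since the members are treated as selected on this comparison. The value for Erbb3 was -0.22 without NC replicate 1, -0.0012 without NC replicate 2, -0.31 with a pseudocount of 0.1 and -0.37 by voom, none of them called.

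For sh4 against NC, which uses the same NC libraries, the log2 difference was -3.74 for Areg (SE 0.05), -2.60 for Btc (SE 0.07), -2.50 for Hbegf (SE 0.04), -1.97 for Ereg (SE 0.06) and -0.80 for Tgfa (SE 0.08). It was -0.25 for Egfr (SE 0.09), 0.75 for Erbb2 (SE 0.06) and 0.53 for Erbb3 (SE 0.14). All 8 were called by limma, 6 lower and 2 higher, where 68.2% of all tested IDs were called (33.2% lower and 35.0% higher), and nothing is read from this count either. One of the higher calls is Erbb3, which entered the fit through sh4 alone. Without it the count was 7 of 7, 6 lower and 1 higher. The call for Egfr was lost with no filter and with the variance trend on the mean log2 value (both -0.25). Its difference was -0.22 without NC replicate 2 and -0.17 without sh4 replicate 1. The value for Erbb3 depended on the scale, at 1.11 with a pseudocount of 0.1 and 1.26 by voom on the recovered reads.

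Among all 12755 tested IDs, Areg had the lowest log2 difference in sh4 (place 1) and stood at place 3 from the lowest in sh1. Hbegf stood at places 15 and 16 from the lowest in sh1 and sh4, Btc at 50 and 12, and Ereg at 237 and 57. Tgfa stood at 1645 and 1026, and Egfr at 1568 and 4115. From the highest, Erbb2 stood at places 2437 and 1380 in sh1 and sh4, and Erbb3 at 7424 and 2306. The median over the 5 tested ligands was -2.19 in sh1 and -2.50 in sh4, beside medians of -0.01 and 0.01 over all tested IDs. The median absolute difference over all tested IDs was 0.36 in sh1 and 0.37 in sh4. Over the 3 receptors the median was -0.11 in sh1 and 0.53 in sh4. These places are a description of a set treated as selected on such values.

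**Figure D3:**
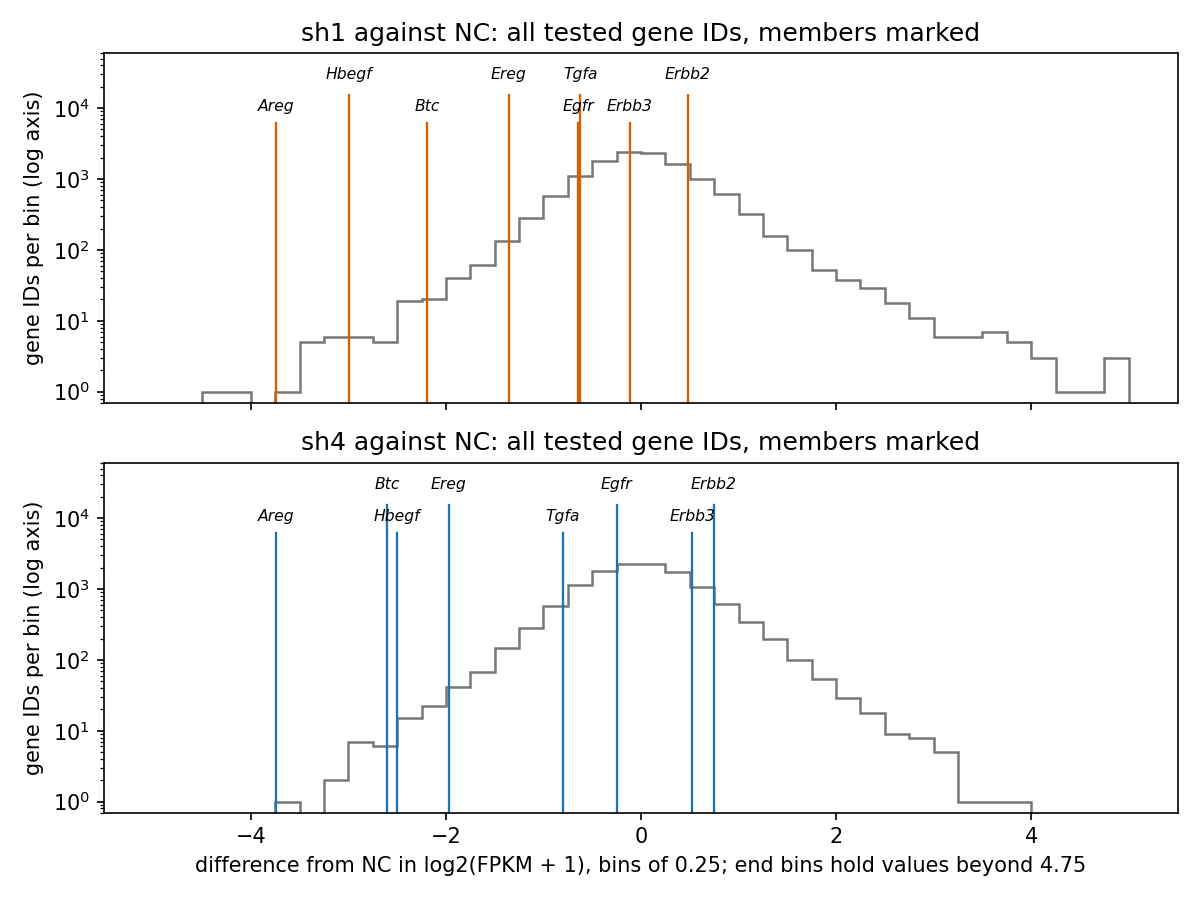
Number of tested gene IDs (log axis) by their difference from NC in log2(FPKM + 1), in bins of 0.25, for sh1 (top) and sh4 (bottom), with vertical lines at the 8 tested members. Areg, Hbegf, Btc and Ereg lie in the lower tail of both panels, with Ereg the least far out of them. Tgfa and the receptors lie within the bulk.

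The direct comparison of sh4 with sh1 asked whether the family differed between the knockdown groups. Hbegf, Egfr, Erbb2 and Erbb3 were higher in sh4 than in sh1, and Ereg and Btc were lower. By limma 6 of the 8 members differed, 4 higher and 2 lower, or 5 of 7 (3 higher and 2 lower) without Erbb3, which entered the fit only through sh4, where it was high. Of all tested IDs 56.0% differed (29.5% higher and 26.4% lower). The median absolute difference between sh4 and sh1 over all tested IDs was 0.27. Over all calls, higher IDs made up 52.8% on the deposited scale, 62.1% when libraries were scaled to total reads and 67.0% when they were given the same FPKM sum.

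Of the ligands, Ereg was lower in sh4, with a log2 difference from sh1 of -0.61 (SE 0.06, limma adjusted p = 3.3e-06). Btc was lower too, at -0.41 (SE 0.07, limma adjusted p = 0.00034), and Hbegf was higher, at 0.49 (SE 0.04, limma adjusted p = 2.9e-07). For all 3 genes both sh4 libraries lay on the same side of both sh1 libraries. The share of all tested IDs that do so was not counted, and nothing is read from this. Areg, the most changed ligand against NC, did not pass the test between sh4 and sh1. Its log2 difference was -0.0044, with a 95% interval from -0.12 to 0.11 and a limma adjusted p of 0.95. The sign turned to 0.07 with total-read scaling and to 0.11 with the same FPKM sum, and neither value passed the test. For Tgfa the difference was -0.18 (95% interval -0.35 to -0.01, limma adjusted p = 0.063), and with a pseudocount of 0.1 it passed the threshold (-0.23, limma adjusted p = 0.049). It was smaller with total-read scaling (-0.12, adjusted p = 0.21) and with the same FPKM sum (-0.09, adjusted p = 0.39).

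Egfr and Erbb2 were higher in sh4 than in sh1, as deposited and under both other scalings. The log2 difference was 0.40 for Egfr (SE 0.09, limma adjusted p = 0.0017) and 0.27 for Erbb2 (SE 0.06, adjusted p = 0.0013). For Erbb3 it was 0.64 (SE 0.14), and since the filter admitted this gene through sh4 alone, its p is given from the fit without a filter (limma adjusted p = 0.017). Every sh4 library was above every sh1 library for each of the 3 receptors. How many of all tested IDs separate in this way was not counted, so nothing is read from it. Against NC the receptors did not move alike, since Egfr was below NC in both groups and Erbb2 above it. In sh4 the difference of Egfr from NC was small (-0.25), beside a median absolute difference of 0.37 over all tested IDs. Its call there depended on the fit. The difference of Erbb3 between sh4 and sh1 was 1.41 with a pseudocount of 0.1 and 1.63 by voom, because most of its libraries lie under 1 FPKM, where the added 1 compresses differences. For Egfr it was 0.63 by voom.

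**Figure D4:**
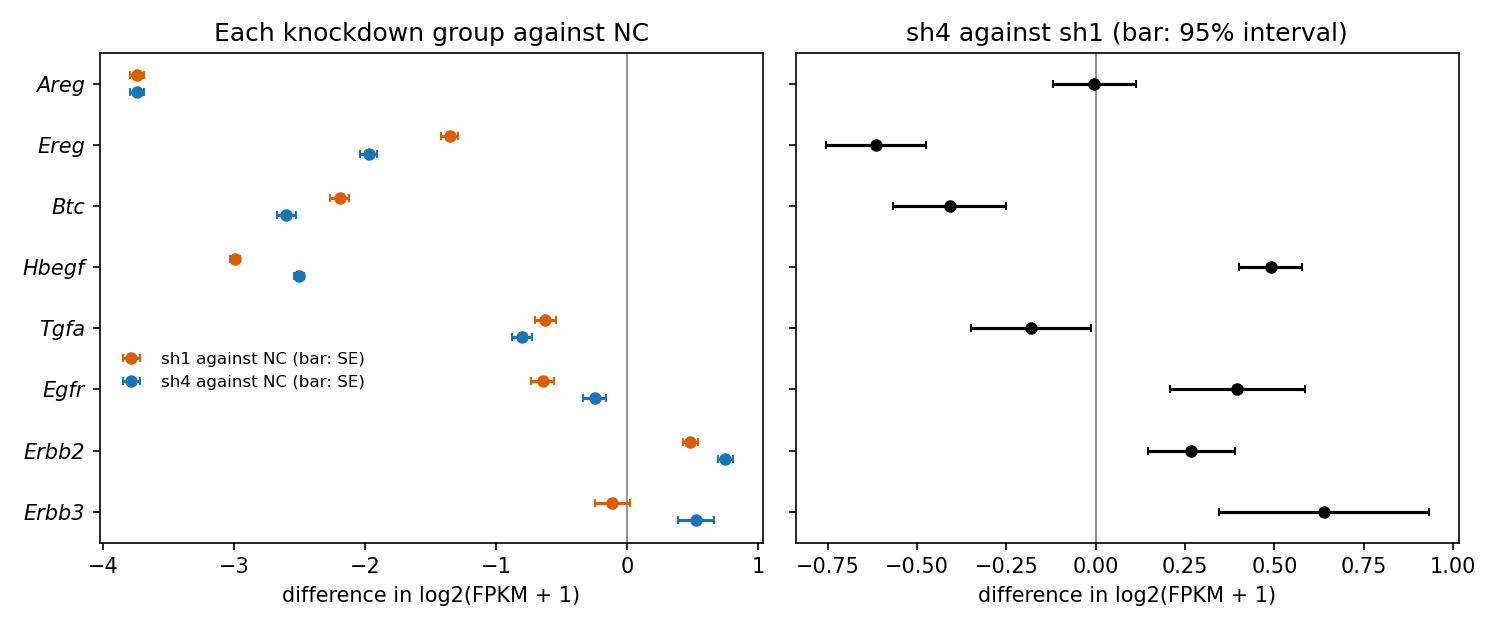
Differences in log2(FPKM + 1) of the 8 tested members, left for sh1 and sh4 against NC (bars: SE) and right for sh4 against sh1 (bars: 95% interval of the limma fit). At right the interval of Areg spans 0, Ereg and Btc lie below 0, and Hbegf and the 3 receptors lie above it. The interval of Tgfa also lies below 0, but the intervals are not adjusted for the number of IDs tested. Tgfa did not pass the test (limma adjusted p = 0.063).

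The profiles most like those of Areg and Ereg were sought among all tested IDs by the Euclidean distance of log2(FPKM + 1), centred on the mean over the 6 libraries. For Areg, among 7690 other IDs with a mean of at least 5 FPKM, the nearest was ENSMUSG00000039518 (distance 0.80). Its mean was 85.0 ± 2.1 FPKM (SD, n = 2) in the NC libraries, 9.88 ± 1.11 in those of sh1 and 8.42 ± 0.0093 in those of sh4. Hbegf was at place 5 (distance 1.25), Btc at place 12 and Ereg at place 51. The distance includes the difference from NC, on which the family is treated as selected, so nothing is read from the members' places. For Ereg, among 11991 other IDs with a mean of at least 1 FPKM, the nearest was ENSMUSG00000024074 (distance 0.18). Its mean was 42.0 ± 0.60 FPKM (SD, n = 2) in the NC libraries, 17.7 ± 0.20 in those of sh1 and 10.8 ± 0.32 in those of sh4. Btc was the nearest member to Ereg, at place 173, and Areg stood at place 9000. The profiles were not scaled, so the distance also reflects the size of the difference from NC. That difference was -3.74 in both sh1 and sh4 for Areg, and -1.35 in sh1 and -1.97 in sh4 for Ereg. Places near Areg and near Ereg come from different pools of IDs and cannot be set against each other. By their levels, Areg was alike in sh1 and sh4, and Ereg was lower in sh4 than in sh1.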

How the data were processed

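Per the labels' protocols, Trizol-extracted RNA went into standard Illumina libraries. HISAT2 2.0.5 and hg18 appear in the submitters' processing notes, while for counter and annotation nothing is given in the sources used here. The authors deposited 1 table of FPKM values per library. Members and gene lists were chosen with earlier results of these data known.

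Whole reads and gene lengths were recovered from the steps of low FPKM values, and they rebuilt every value of all 25747 IDs above 0 to within 1e-06 FPKM plus a small relative tolerance. The deposited denominators followed the median-of-ratios size factors of these reads (largest departure 4.65e-10%), so the FPKM values already hold the typical gene constant between libraries, a step the labels do not state.

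Values were tested as log2(FPKM + 1) with limma 3.58.1 (R 4.3.3), over IDs that reached 1 FPKM in 2 or more libraries. All 6 libraries entered 1 fit with 3 residual degrees of freedom, a robust empirical Bayes variance and its trend on the mean reads. Benjamini-Hochberg adjustment of p-values ran over all tested IDs, with a threshold of 0.05. The fit and the read recovery were also run on simulated data. In the simulated fit few genes changed, and alike in sh1 and sh4, whereas most tested IDs were called in the real data. It therefore says nothing on how reliable the calls given here are. The rule for names took all 10 members, list genes past the threshold, and up to 5 IDs with profiles nearest to Areg and Ereg. None of the 132 list symbols matched an ID (0 matches), and of the unnamed IDs only the nearest is printed for each. No sequence is printed, since the reference used here holds human genes only.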

Additional observations from a re-analysis of the deposited data

Results flagged for a closer look

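For 6 members the sh4 and sh1 groups stood at different distances from NC, by limma's direct test of the difference. The sh4 effect minus the sh1 effect was -0.61 for Ereg, -0.41 for Btc and 0.49 for Hbegf on the log2(FPKM + 1) scale. It was 0.40 for Egfr, 0.27 for Erbb2 and 0.64 for Erbb3, the last of which entered the fit only through sh4, where it was high. Such differences were called for 56.0% of all tested IDs.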

How the results depend on the processing

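Against NC, the 8 tested members kept their direction in 218 of 218 fits under other settings and their call in 214, the exceptions being 4 fits for Egfr in sh4 (no filter and the variance trend on the mean log2 value, both -0.25, and those without NC replicate 2, -0.22, and without sh4 replicate 1, -0.17). Between sh4 and sh1, 105 of 109 fits kept the direction and 108 the call. The exceptions were Tgfa with a pseudocount of 0.1 and the sign of Areg, at 0.0736 with total-read scaling, 0.114 with the same FPKM sum, and -0.0791 to 0.0702 when 1 library was left out, none of which passed the test, and the cause was not tested. Many of these fits could not change a direction. Another filter, another variance trend, the replicate block, or leaving out a library of the group not compared keeps the difference itself as it was. The counts of fits are therefore no measure of how firm the directions are. The ligand sum moved by more than the spread between replicates to 10.9% (total-read scaling) and 10.8% (same FPKM sum) of NC in sh1 and to 12.9% (same FPKM sum) in sh4. It was 11.3% to 11.4% in sh1 and 12.3% to 12.7% in sh4 when 1 library was left out. Where 1 library remained in a group, the fit takes its spread from the others. With the replicate block, 8508, 8836 and 7345 IDs were called for sh1 against NC, sh4 against NC and sh4 against sh1, beside 8360, 8696 and 7139 without it, and no member's call changed. Deviations of same-numbered libraries correlated at -0.01 (NC and sh1), 0.12 (NC and sh4) and -0.02 (sh1 and sh4), and the labels attach no batch to the numbers. The pathway lists planned were not run, since no symbol matched. Depth limits Epgn, Egf and Erbb3 most.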
